A study of Mus musculus with 2 samples.

Results

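The genes described here are Pomc, Tbx19, Pax7, Oacyl and Tnnt1, a set named for the POMC lineage of the pituitary. They were taken by symbol, and are 5 of the 31055 features counted in each library. Checked against the data, Tnnt1 was not with the other members in the cluster that carried them, at 0.469 CPM in male and 0.464 CPM in female cells against 61.9 CPM and 52.9 CPM in mesenchymal-like cells, but it was found in Pomc-high cells of another cluster. CPM is the count of unique molecular identifiers (UMIs) of a gene per 1000000 UMIs summed over a group of cells. The study sorted GFP-positive cells from Sox9iresGFP/+ mouse pituitaries at postnatal day 3 (P3) and sequenced them as single cells, in 1 male and 1 female library of 3 pooled pituitaries each. All cells carry the reporter allele on 1 copy of Sox9, a factor of pituitary stem cells (SCs), and there is no control without it. The reporter protein is more stable than SOX9 itself, and GFP-positive cells therefore need not be SCs at the time of the sort.

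Pomc encodes pro-opiomelanocortin, the precursor that corticotrophs of the anterior lobe cut to ACTH and melanotrophs of the intermediate lobe cut further to alpha-MSH. Tbx19 (TPIT) is the T-box factor that both cell types need for their terminal differentiation. Pax7, a paired homeodomain factor, opens chromatin in the intermediate lobe and sets the melanotroph against the corticotroph identity. Oacyl encodes a predicted acyltransferase. Tnnt1 encodes the slow skeletal muscle form of troponin T.

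On mm10, Pomc (ENSMUSG00000020660) lies on chromosome 12 at 3954951 to 3960642 on the plus strand, Tbx19 (ENSMUSG00000026572) on chromosome 1 at 165137855 to 165160773 on the minus strand and Pax7 (ENSMUSG00000028736) on chromosome 4 at 139737062 to 139833528 on the minus strand. Tnnt1 (ENSMUSG00000064179) lies on chromosome 7 at 4504570 to 4516382 on the minus strand, and Oacyl is ENSMUSG00000046610. No other counted gene overlaps a member on the same strand. The 250 bases upstream of Pomc and Tbx19 are shown because these genes were high in the same cells. The sequences are from RefSeq on GRCm38.p6, read 5′ to 3′ on the strand of the gene, and end at the base before the start site. Capitals mark TAATTA, a core that homeodomain factors can bind, and the TATA box TATAAA.
Pomc upstream (chr12:3954695-3954944, plus strand): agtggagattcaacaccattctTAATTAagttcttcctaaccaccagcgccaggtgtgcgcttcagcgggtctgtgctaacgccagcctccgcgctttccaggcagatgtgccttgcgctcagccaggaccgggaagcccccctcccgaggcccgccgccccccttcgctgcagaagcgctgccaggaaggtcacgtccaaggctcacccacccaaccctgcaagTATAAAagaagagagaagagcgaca
Tbx19 upstream (chr1:165160774-165161023, minus strand): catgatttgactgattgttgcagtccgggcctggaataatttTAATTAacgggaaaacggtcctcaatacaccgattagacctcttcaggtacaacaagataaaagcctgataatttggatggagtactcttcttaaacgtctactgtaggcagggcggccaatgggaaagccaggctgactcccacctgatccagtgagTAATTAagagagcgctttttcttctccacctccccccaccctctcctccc
On both strands, TAATTA occurs once in the Pomc window and at 2 places in the Tbx19 window, and in 4.84% of 32851 mouse promoter windows of this length. TATAAA occurs in the Pomc window and not in that of Tbx19, and in 12.4% of all windows. The letters TAATCC and TCACACC occur in neither, and in 6.25% and 3.33% of all. A match is a description of the sequence and not a binding site.

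After the cell filters, 10410 male and 5711 female cells remained, with medians of 8902 and 9789 UMIs. The libraries share 19 barcode sequences. Although the labels call the cells stem cells, 2787 male and 3188 female cells fell in clusters that carried the SC markers. In the male library, 31.9% of the cells fell in 4 clusters with a median of 1237 UMIs per cell, against 1.94% in the female library. With 1 library per sex, no difference between male and female cells can be told apart from a difference between these libraries, and no test was made. Intervals are exact at 95% (Poisson for CPM, Clopper-Pearson for shares of cells) and cover counting error only.

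Pomc was the member with UMIs in the most cells, and almost all of its UMIs came from few of them. A Pomc UMI was found in 7590 male cells (72.9%, 72.0 to 73.8) and 1986 female cells (34.8%, 33.5 to 36.0). In 2686 and 1326 of these, it was a single UMI. At least 10 UMIs were found in 753 male and 174 female cells, at least 100 in 406 and 134, and at least 1000 in 195 and 70. The highest cell held 25214 Pomc UMIs among male and 12865 among female cells, and the highest share in a cell was 58.1% and 48.4% of its UMIs. Cells in which Pomc was at least 1% of the UMIs are called Pomc-high. There were 650 such male cells (6.24%, 5.79 to 6.73) and 139 female cells (2.43%, 2.05 to 2.87), and they held 98.6% and 98.8% of all Pomc UMIs. The limit cuts a range: 174 male and 20 female cells lay between 0.5% and 2%.

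**Figure D1:**
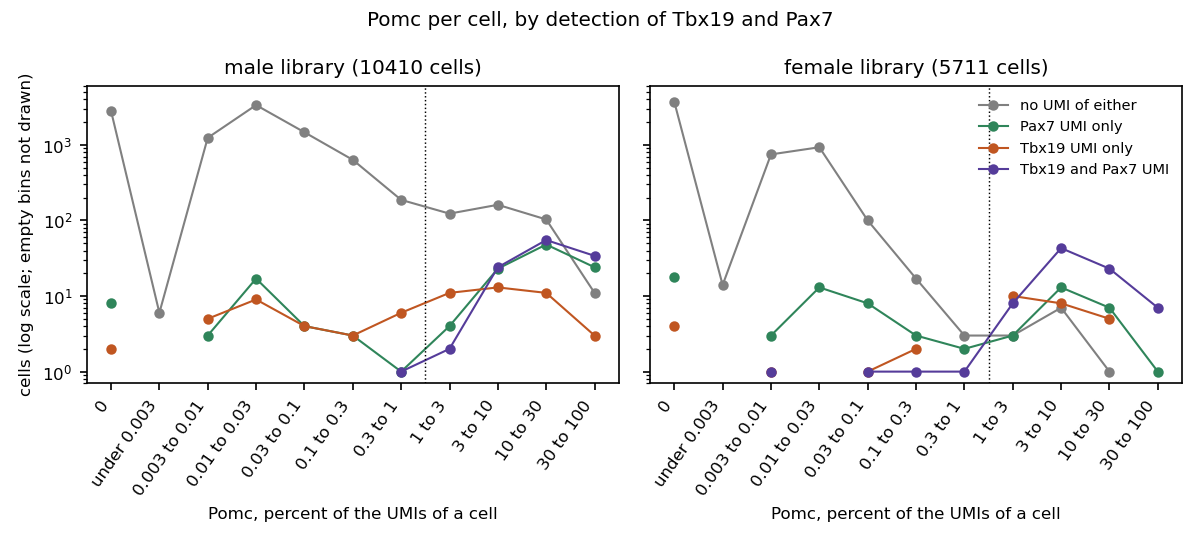
Cells by the Pomc share of their UMIs (x axis, percent) in each library, on a logarithmic count of cells, with a line for cells by detection of Tbx19 and Pax7; the dotted line is the limit of 1%. Cells with UMIs of both factors sit almost wholly right of the limit, 115 of 116 in the male and 81 of 85 in the female library.

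Most male Pomc-high cells had few UMIs. In the low-UMI clusters lay 432 male and 5 female Pomc-high cells, 1 of which was itself led by Gal, Pomc and Resp18. Without those clusters the shares were 3.08% (2.69 to 3.50) and 2.39% (2.01 to 2.83), whose intervals overlap. The median depth of Pomc-high cells was 2010.0 UMIs for male and 15216 for female cells. Depth also moved with the other members: a Tbx19 UMI was found in 23.5% of the male and 74.8% of the female Pomc-high cells, and a Pax7 UMI in 32.9% and 75.5%.

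The other members were found in few cells. Tbx19 was at 3.17 CPM (2.84 to 3.53) in male against 3.45 CPM (3.01 to 3.95) in female cells, found in 183 and 116 cells, and never above 8 UMIs in a cell. Pax7 reached 8.79 CPM (8.24 to 9.38) and 9.10 CPM (8.37 to 9.88), from 251 and 156 cells. For both factors the intervals of the libraries overlap. Oacyl reached 34.1 CPM (33.0 to 35.2) and 21.8 CPM (20.7 to 23.0), from 370 and 135 cells. Pomc-high cells held 91.1% and 94.0% of the Tbx19 UMIs, 92.7% and 79.2% of the Pax7 UMIs and 97.1% and 96.6% of the Oacyl UMIs. Tnnt1 reached 13.7 CPM (13 to 14.4) and 13.2 CPM (12.3 to 14.1) from 1040 and 641 cells, but Pomc-high cells held 1.45% and 1.81% of its UMIs.

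Clusters were built without the members and named from marker lists. A single cluster, of 174 male and 129 female cells, was named melanotroph-like. Since Pomc, Tbx19, Pax7 and Oacyl are among its naming markers, their levels in it are a description. Pomc was at 257692 CPM in male and 124017 CPM in female cells of this cluster, with a median of 21.9% and 6.29% of the UMIs of a cell. Tbx19 was at 49.9 CPM (43.5 to 57.1) and 80.3 CPM (68.8 to 93.2), Pax7 at 185 CPM (172 to 198) and 229 CPM (209 to 250.3), and Oacyl at 711 CPM (686 to 737) and 602 CPM (569 to 635). Tnnt1 had 2 UMIs in all male cells of the cluster and 1 UMI in all female cells. A Tbx19 UMI was found in 62.6% and 70.5% of the cells, a Pax7 UMI in 93.1% and 91.5% and an Oacyl UMI in 91.4% and 73.6%. In mesenchymal-like cells, which should lack all 3, a Tbx19 UMI was found in 0.342% of male cells and in 0 of 325 female cells, which allows up to 1.13%. The remaining naming markers were Pcsk2, the convertase that yields alpha-MSH, and Drd2, the receptor through which dopamine restrains melanotrophs. Both were detected there, which is likewise a description.

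**Figure D2:**
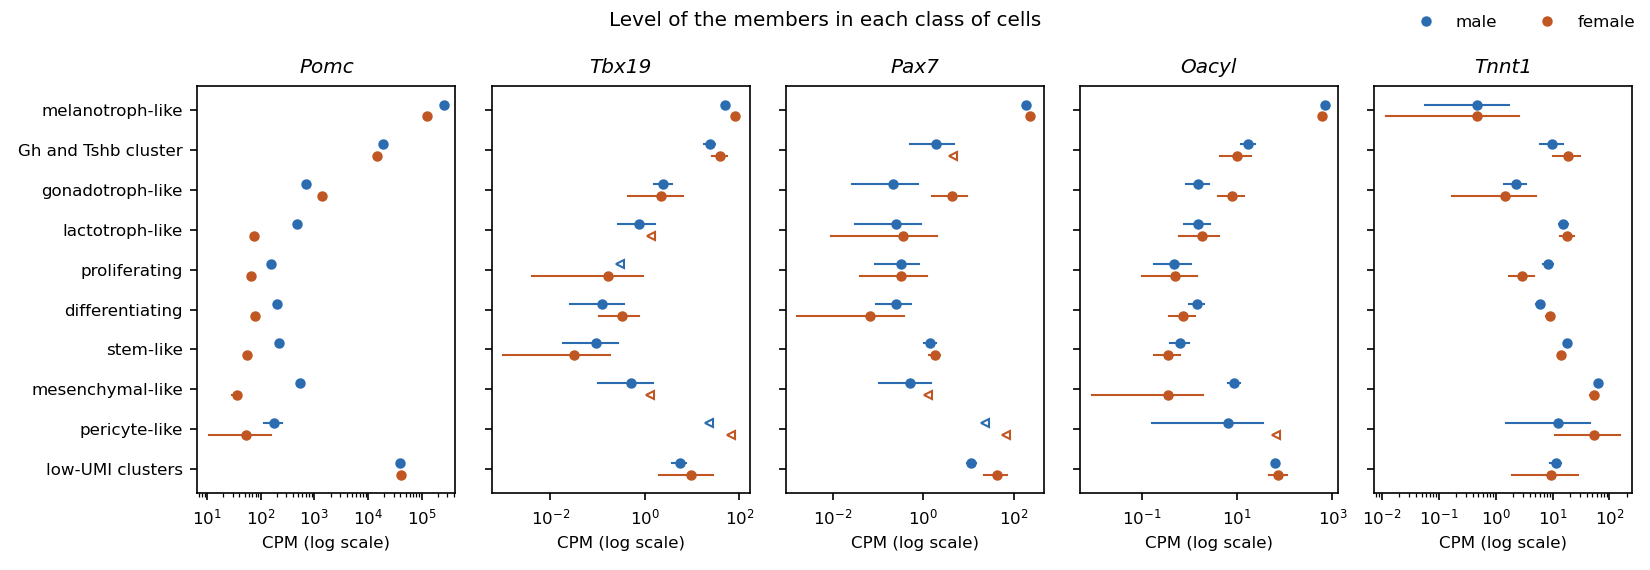
CPM of each member (x axes, logarithmic) in each class of cells, with exact Poisson 95% intervals, for the male and female library; open triangles give the upper limit where no UMI was found. The melanotroph-like cluster is highest for Pomc, Tbx19, Pax7 and Oacyl, and among the lowest for Tnnt1, which is at 61.9 and 52.9 CPM in mesenchymal-like cells.

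Next in order for Pomc came the low-UMI clusters, at 39374 and 41493 CPM, and a cluster led by Gh and Tshb, at 19305 and 14892 CPM. The female value of the low-UMI clusters rests on few, deep cells. A cell of 57046 UMIs held 10115 Pomc UMIs, and a cell of 26582 UMIs held 2839. The 106 female cells there that were not Pomc-high held 10 Pomc UMIs in all. The Gh and Tshb cluster was also next for Tbx19, at 23.5 CPM (17.5 to 31.0) and 38.4 CPM (26.1 to 54.5), while Pax7 was at 1.88 CPM (0.513 to 4.82) there in the male library and without a UMI in the female library. In gonadotroph-like cells, Tbx19 was at 2.47 CPM (1.56 to 3.70) and 2.16 CPM (0.445 to 6.30), and without their 9 and 3 Pomc-high cells at 0.985 CPM (0.451 to 1.87) and without a UMI. SC-like cells held Tbx19 at 0.0903 CPM (0.0186 to 0.264) and 0.0322 CPM (8.15e-04 to 0.179).

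Within the melanotroph-like cluster, cells with more Pomc also held more Oacyl, Pcsk2 and Drd2, whereas Pax7 was already present in the cells with least Pomc. Levels were computed here as CPM over the UMIs other than Pomc, since Pomc itself takes up to 48.4% of a cell in this cluster. In the female library, Pax7 was at 238 (179 to 309) in the 19 cells with a Pomc share under 1%, at 192 (135 to 266) in 14 cells from 1% to 3%, at 299.7 (263 to 339.7) in 58 cells from 3% to 10%, at 261 (219 to 309) in 30 cells from 10% to 30% and at 167 (105 to 253) in 8 cells above. Over all bins these values have no single order. From the bin of 3% to 10% upward they fell, and the intervals of that bin and the highest do not overlap. Female Oacyl over the same bins was at 25.9 (9.52 to 56.4), 139 (90.6 to 203), 365 (324 to 408), 1484 (1381 to 1593) and 1481 (1280.4 to 1704), and Pcsk2 was at 285 (221 to 363) in the lowest and 4352 (4003 to 4723) in the highest bin. Drd2 had no UMI below a share of 3% and reached 175 (111 to 262) in the highest bin. Tbx19 was lowest in the lowest bin and had no single order above it. Its values were 30.3 (12.2 to 62.3), 112 (69.4 to 171), 117 (95.1 to 143), 73.1 (51.7 to 100.3) and 83.5 (41.7 to 149). Chga had no single order: it was at 2602 (2398 to 2818) in the lowest bin, at 1626 (1539.7 to 1716) from 3% to 10% and at 3995 (3661 to 4351) in the highest. Sox2, a factor of SCs, was at 324 (255 to 406) in the lowest and 30.4 (8.28 to 77.8) in the highest bin.

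The male cells gave the same order where the bins held enough of them. Only 4 and 3 male cells lay in the lowest bins. From the 36 cells at 3% to 10% to the 53 cells above 30%, Oacyl went from 408 (352 to 469) to 1166 (1103 to 1231), Pcsk2 from 589 (522 to 663) to 2523 (2431 to 2619) and Sox2 from 161 (126 to 201) to 49.4 (37.2 to 64.3). Pax7 was at 298 (251 to 351) and 226 (199 to 256) in these bins, lower in the higher bin but with intervals that overlap. Tbx19 was at 90.8 (65.7 to 122) and 59.3 (45.9 to 75.5), whose intervals overlap too. Cell depth moved with the Pomc share, with medians of 13916 and 33877 UMIs in those male bins and 12490.0 and 27028 in the lowest and highest female bin. Its part in the order was not tested.

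**Figure D3:**
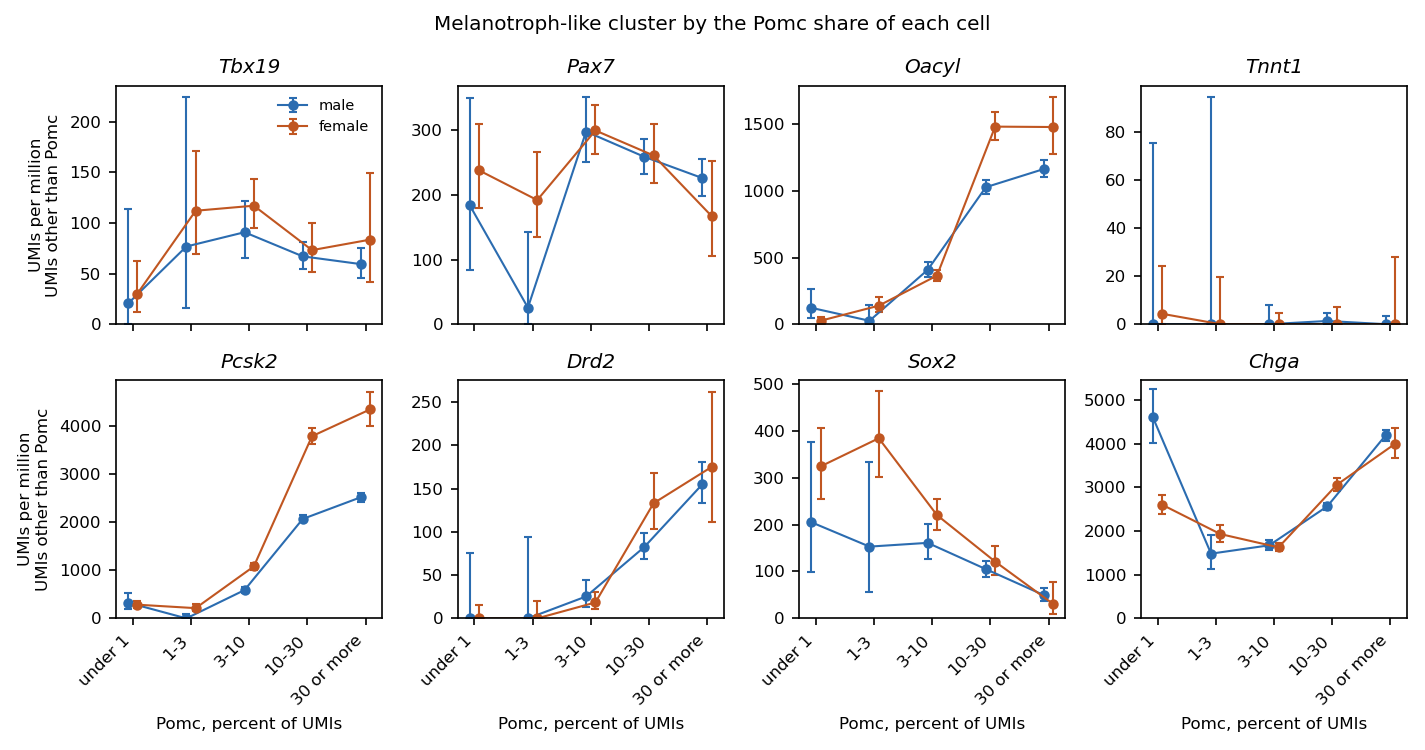
CPM over UMIs other than Pomc (y axes, linear from 0) in cells of the melanotroph-like cluster, binned by the Pomc share of each cell (x axis, percent), with exact Poisson 95% intervals. Oacyl, Pcsk2 and Drd2 are higher at a high Pomc share and Sox2 lower. Pax7 and Tbx19 have no single order over all bins, and Tnnt1 is at or near 0. Pax7 is lower in the highest bin than at 3% to 10%.

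All 10 pairs of members were counted for detection in the same cell. Tbx19 and Pax7 shared 116 male cells, which are 63.4% of the Tbx19 cells and 46.2% of the Pax7 cells, and 85 female cells, which are 73.3% and 54.5%. A Pax7 UMI was found in 2.41% of all male and 2.73% of all female cells. Pax7 and Oacyl shared 188 and 93 cells. Pomc, Tbx19, Pax7 and Oacyl were all found in 107 and 71 cells, 94 and 68 of them melanotroph-like. A Tnnt1 UMI was found in 5.46% and 5.17% of the Tbx19 cells, beside 9.99% and 11.2% of all cells, but at 5000 UMIs per cell the shares were 4.62% and 6.38% beside 6.75% and 6.16%. It was found in 2.59% and 0% of the Tbx19 cells with Pax7 and in 10.4% and 19.4% of those without.

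These shares depend on depth, since both factors sit at a few UMIs per cell. When each cell was drawn down to 5000 UMIs and shallower cells (3627 male, 287 female) were dropped, 47.7% of male and 38.3% of female Tbx19 cells held a Pax7 UMI, and 22.6% and 18.6% of the Pax7 cells a Tbx19 UMI. A missing UMI in a cell is therefore not evidence that the gene is silent there.

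Splitting the Tbx19 cells by Pax7 gave groups that differed in Pomc and Oacyl, but the Pax7-negative group is a mixture and not 1 cell type. In the male and female library, 29 of its 67 and 8 of its 31 cells were not Pomc-high. Melanotroph-like were 6 and 9 of its cells, gonadotroph-like 14 and 1, and 19 and 0 lay in low-UMI clusters. The Gh and Tshb cluster described below held 16 and 14. The 116 male cells with Pax7 held from 87 to 25214 Pomc UMIs, with a median of 5670.0, and the 67 without held from 0 to 14311, with a median of 309. In the female library the 85 cells with Pax7 held from 1 to 12865, with a median of 1075, and the 31 without held from 0 to 6037, with a median of 326. The ranges overlap in both libraries. Of the Pax7-positive cells, 115 and 81 were Pomc-high, against 38 and 23 of the Pax7-negative cells. Summed over the cells, Pomc was at 249867 against 64484 CPM in the male library, a ratio of 3.87 (3.84 to 3.91), and at 137401 against 45477 CPM in the female library, a ratio of 3.02 (2.97 to 3.08). Oacyl was at 667 against 34.2 CPM and at 619 against 137 CPM, with ratios of 19.5 (13.7 to 28.6) and 4.53 (3.30 to 6.32).

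**Figure D4:**
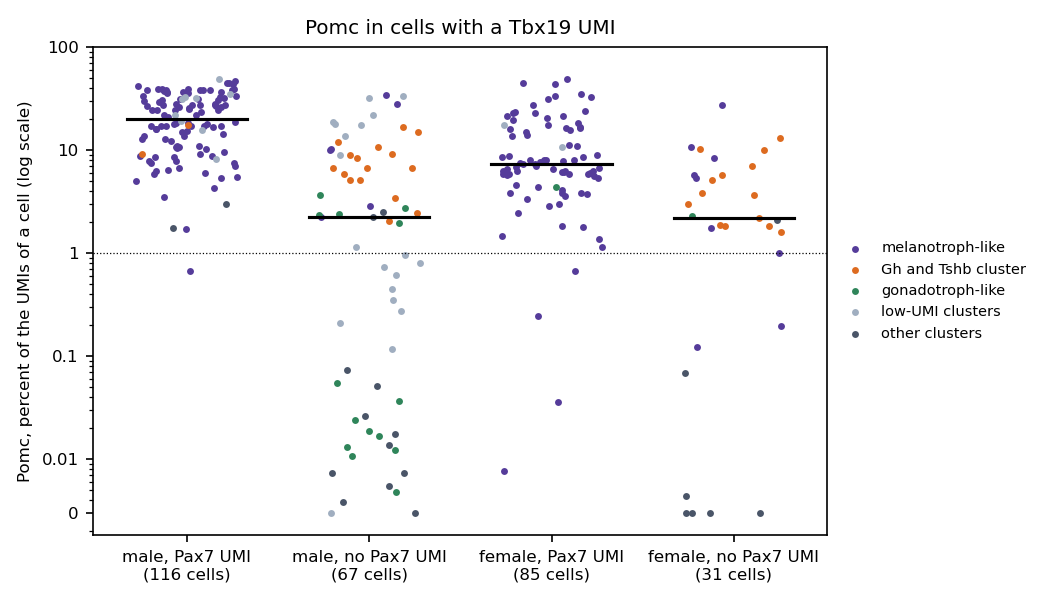
Pomc share of the UMIs (y axis, percent, logarithmic, with 0 drawn at the foot) of every cell with a Tbx19 UMI, by library and detection of Pax7, coloured by cluster, with a line at the median and a dotted line at 1%. Pax7-positive cells lie mostly in the melanotroph-like cluster, with medians of 20.1% and 7.41%, and Pax7-negative cells are spread over several clusters, with medians of 2.25% and 2.20%.

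The ratios moved with the cells taken, in both directions. Among Pomc-high Tbx19 cells, which by their choice leave out the Pax7-negative cells with least Pomc, the Pomc ratio was 2.48 (2.45 to 2.5) in the male and 2.24 (2.20 to 2.28) in the female library, and the Oacyl ratio 12.4 (8.69 to 18.2) and 3.52 (2.55 to 4.95). After thinning to 5000 UMIs the Pomc ratio was 1.37 (1.33 to 1.40) and 1.64 (1.57 to 1.71), in 65 male and 47 female Tbx19 cells, and of the 34 male and 29 female cells then without Pax7, 8 and 12 did hold a Pax7 UMI at full depth. The Pax7-positive cells were deeper, with medians of 25044 against 16602 UMIs in the male and 16257 against 12681 in the female library. Scrublet marked 12 of 116 and 13 of 67 male cells, and 3 of 85 and 2 of 31 female cells, as likely doublets. Without the marked cells, the Pomc ratio was 4.45 (4.40 to 4.50) and 2.72 (2.67 to 2.77) and the Oacyl ratio 38.2 (22.5 to 69.9) and 4.07 (2.97 to 5.69), with 24.7 (14.5 to 45.2) and 3.62 (2.62 to 5.09) for Oacyl among Pomc-high cells. Without the low-UMI clusters the Pomc ratio was 4.67 (4.62 to 4.72) and 3.00 (2.95 to 3.06). The Oacyl ratio of Pomc-high cells was 3.44 (1.91 to 6.40) and 2.51 (1.33 to 4.84) after thinning. All these cells were chosen by a Tbx19 UMI, and 104 of the 183 male and 54 of the 116 female ones held only 1. The Tbx19 ratio is therefore tied to cell depth and does not compare levels of Tbx19. It was 0.753 (0.546 to 1.04) and 0.822 (0.538 to 1.27) over all Tbx19 cells. Among Pomc-high cells it was 0.647 (0.455 to 0.928) and 0.710 (0.452 to 1.13). Tnnt1 was at 0.964 against 9.65 CPM in the male library and without a UMI in 85 cells against 34.2 CPM in the female library.

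Across all genes, 68 of 3209 were at least 2-fold higher in the Pax7-positive Tbx19 cells in both libraries (2.12%), and 108 at least 2-fold lower (3.37%). These are folds in 2 libraries and not tests. Because Pomc takes a larger share of the Pax7-positive cells, all other genes are lowered by a constant, 0.319 for male and 0.146 for female cells on the log2 scale. Per UMI other than Pomc the counts were 102 higher and 69 lower. Among Pomc-high Tbx19 cells, 51 of 3146 genes were higher (1.62%) and 93 lower (2.96%), and 89 and 66 per UMI other than Pomc. Between all and Pomc-high Tbx19 cells, 44 of the higher and 64 of the lower genes were shared. After thinning, 741 genes could be compared, of which 4 were higher and 5 lower.

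Of 10 prohormone processing and granule genes, 9 could be compared, and 3 were higher and 0 lower in the Pax7-positive cells. The median log2 ratio of the list was 0.617, beside -0.228 over all genes compared. Pcsk2 was at 1420.4 against 93.0 CPM in the male and 1809 against 239 CPM in the female library. After thinning, the Pcsk2 ratio of Pomc-high cells was 2.22 (1.47 to 3.38) and 1.98 (1.37 to 2.88), beside 9.80 and 5.61 at full depth, and without doublets it was 13.1 (9.95 to 17.5) and 5.78 (4.59 to 7.34). Chga and Chgb, acidic proteins of secretory granules, were the other called members, Chga at 2009.7 against 659.5 CPM and 1869 against 725 CPM. Pcsk1, the convertase that yields ACTH, was too low to be compared, at 23.6 against 36.0 CPM and 7.84 against 25.3 CPM among Pomc-high cells. Scg2, another granule protein, had ratios below 1 there, 0.547 (0.490 to 0.611) and 0.272 (0.228 to 0.323), and was not called since the male fold was under 2.

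Of 7 listed receptors, 2 could be compared, 1 higher and 1 lower. Drd2 was at 76.8 against 12.3 CPM in the male and 66.2 against 2.28 CPM in the female library, where the lower value rests on 1 UMI. Nr3c1, the glucocorticoid receptor that mediates feedback on corticotrophs, was at 11.2 against 120.2 CPM and 8.91 against 129.9 CPM. It was at 128 and 119.8 CPM in mesenchymal-like cells, and at 63.2 and 64.9 CPM in SC-like cells without a Pax7 UMI. The level in the Pax7-negative cells is thus not particular to them. Thinning left few UMIs of Drd2 or Nr3c1 among Pomc-high cells: the Drd2 ratio was 2.5 (0.225 to 48.2) and 2.47 (0.0537 to 353), beside 3.98 and 21.5 at full depth, and the Nr3c1 ratio 0.0526 (8.53e-04 to 0.487) and 0 (0 to 1.32). Without doublets the Drd2 ratio was 11.6 (3.98 to 48.6) and 22.6 (3.31 to 1083). Crhr1, the receptor for corticotropin-releasing hormone, had no UMI in any Pax7-positive cell that was Pomc-high, and was at 30.5 CPM (19.1 to 46.1) in 13 of the 38 male and 38.0 CPM (19.6 to 66.3) in 8 of the 23 female Pax7-negative cells. With 3 UMIs set in place of 0, Crhr1 was 31.5-fold lower in the male and 19.4-fold lower in the female Pax7-positive cells. These folds are not bounds: the upper limits of the ratio were 0.0623 and 0.123. The gene was under the minimum level for the comparison across genes. Avpr1b, the vasopressin receptor of corticotrophs, had 2 and 3 UMIs in the Pax7-negative and none in the Pax7-positive cells.

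Factors of the lineage included genes called lower in the Pax7-positive cells. Neurod1, a bHLH factor of early corticotrophs that gonadotrophs also express here, was at 9.0 against 317 CPM in the male and 29.9 against 66.1 CPM in the female library. Isl1, a LIM homeodomain factor, was at 27.0 against 78.1 CPM and 14.6 against 114 CPM. Per UMI other than Pomc, Neurod1 was not called among all Tbx19 cells and Isl1 was not called among Pomc-high Tbx19 cells. Lhx3 and Insm1 differed by less than their counting error among Pomc-high cells.

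Genes of other endocrine lineages and of SCs were called lower or not at all in the Pax7-positive cells. Of 10 genes of other lineages, 5 could be compared, and Cga, Lhb and Foxl2 were lower. Cga, the common subunit of the glycoprotein hormones, was at 155 against 3753 CPM and 103 against 469 CPM. Lhb rests on 3 male cells and 1 female cell. Gh was at 30.0 against 3259 CPM among male Pomc-high cells, the latter from 9 cells, and at 32.7 against 28.5 CPM among female ones. Of the Pax7-negative Tbx19 cells, 14 male cells and 1 female cell were in the gonadotroph-like cluster, and among Pomc-high cells 5 and 1. Of 10 SC genes, 6 could be compared, and Mia, Aldh1a2 and Rbpms were lower. Among Pomc-high cells only Rbpms was called, at 66.5 against 223 CPM and 69.9 against 164 CPM. The reporter eGFP had 6 UMIs among male and 1 UMI among female Pax7-positive Pomc-high cells. Of 8 proliferation genes, 3 could be compared, and 5 among Pomc-high cells, and 0 were called in either direction. In the female library alone, Top2a was at 85.0 CPM in Pax7-positive Pomc-high cells, from 3 cells, and had no UMI in the 23 Pax7-negative ones. This is 8.95-fold higher with 3 UMIs set in place of 0. The lower limit of the ratio was 6.08, but it takes the UMIs of those 3 cells as independent counts. The male levels were 78.1 against 92.8 CPM.

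**Figure D5:**
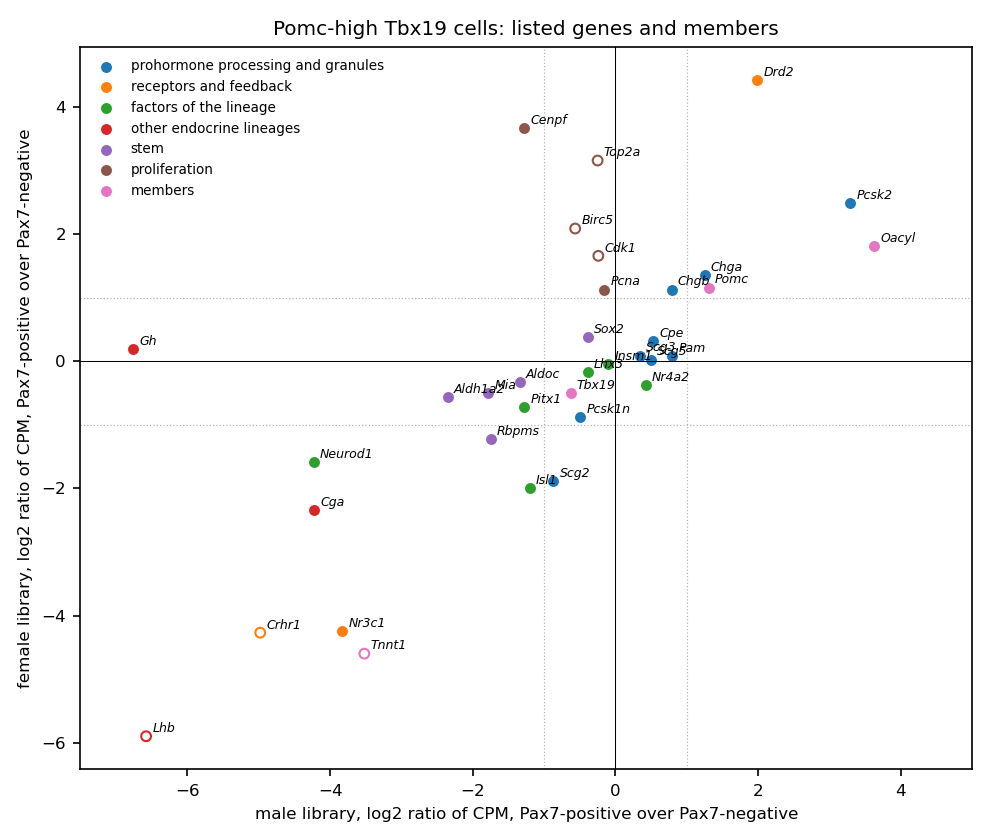
Log2 ratio of CPM, Pax7-positive over Pax7-negative Pomc-high Tbx19 cells, in the male (x axis) and female (y axis) library, for the members other than Pax7 and listed genes that could be compared, with Crhr1 and Tnnt1 added; open circles have 0 UMIs in a group and are set at the floor of 3 UMIs, and dotted lines are 2-fold. Drd2, Pcsk2, Oacyl, Pomc and Chga lie at upper right, and Nr3c1, Crhr1, Tnnt1, Cga and Lhb at lower left.

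By the size of the smaller fold, the leading genes higher in Pax7-positive Tbx19 cells, after Pax7 itself, were Pcsk2, Jam2, Esm1, Vgf, Drd2, Alcam, Pou2f2, Rtn1 and Cmbl. Alcam, a cell adhesion molecule, was at 597 against 57.9 CPM in the male and 638 against 103 CPM in the female library. Pou2f2, a POU domain factor, was at 50.1 against 3.51 CPM and 87.8 against 16.0 CPM. Among Pomc-high cells Hist1h1b, Dnah8 and Slitrk6 were in the leading 10 and Jam2, Drd2 and Cmbl were not. The leading lower genes were Lhb, Vegfd, Gm2694, Nr3c1, Rasd1, Ddit4l, Foxl2, Cebpd, Eya1 and Cntn1. Rasd1, a small GTPase that glucocorticoids induce, was at 7.39 against 77.2 CPM and 10.8 against 207 CPM. Among Pomc-high cells Ptprz1 and Acbd7 were in the leading 10, in place of Vegfd and Foxl2.

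No other cluster held as many Pax7-negative, Pomc-high Tbx19 cells as the Gh and Tshb cluster, with 16 of 38 in the male and 14 of 23 in the female library. That cluster held cells of different kinds. Its 24 male and 19 female Pomc-high cells had from 166 to 6100 and from 91 to 1541 Pomc UMIs. Their median was 0 Gh UMIs, but Gh was found in 11 and 8 of them, at 4680.2 CPM (4493 to 4873) and 44.8 CPM (21.5 to 82.3). Tbx19 reached 99.5 CPM (73.8 to 131) and 139 CPM (94.3 to 197) in the Pomc-high cells of the cluster. Crhr1 was at 41.8 CPM (25.9 to 63.9) and 71.6 CPM (40.9 to 116) there, and Gpc5, a glypican used here as a corticotroph marker, at 43.8 CPM (27.4 to 66.3) and 89.5 CPM (54.7 to 138). The other 68 and 34 cells of the cluster had no UMI of Tbx19, Crhr1 or Gpc5, at most 12 and 4 Pomc UMIs, and Gh at 155866 and 224625 CPM. Tnnt1 followed the first group, with 15 UMIs in each library, at 29.8 CPM (16.7 to 49.2) and 67.2 CPM (37.6 to 111), against 3.70 CPM (1.36 to 8.06) and no UMI in the others. These cells were picked by Pomc after their values had been seen, so they are described and not named.

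Pax7 was also found without Tbx19 or high Pomc. Of the Pax7 cells without a Tbx19 UMI, 36 of 135 in the male and 47 of 71 in the female library were not Pomc-high, and 25 and 31 of those were SC-like. Sox2 was found in 25 of these 25 male and 30 of these 31 female SC-like cells, at 456 CPM (386 to 535) and 619 CPM (539.6 to 707), beside 620.5 and 746 CPM in SC-like cells without a Pax7 UMI. Tbx19, Drd2, Esm1 and Pou2f2 had no UMI in them, and Oacyl had 1 and 0. Pcsk2 was at 64.3 CPM (39.8 to 98.2) and 114 CPM (81.5 to 155), against 2.07 CPM (1.60 to 2.62) and 1.53 CPM (1.12 to 2.03) in the other SC-like cells, and was found in 9 and 11 cells. Chga was also higher, at 486 CPM (414 to 568) from 6 cells and 191 CPM (148 to 243) from 3 cells, against 6.72 and 4.17 CPM. Scg2 was at 27.5 CPM in the male and without a UMI in the female library, against 8.02 and 9.18 CPM. Aldh1a2, the retinoic acid enzyme that marks most SC-like cells here, was lower, at 113 CPM (79.7 to 156) and 54.2 CPM (32.6 to 84.7) against 778 and 576 CPM. However, 20 male and 24 female SC-like cells with Pax7 lay in a cluster led by Ednrb. Without a Pax7 UMI, 689 of 2762 male and 1130 of 3157 female SC-like cells lay there. Ednrb was at 88.7 CPM (59.4 to 127) and 279.6 CPM (227 to 341), against 81.8 and 176 CPM without Pax7. Whether these genes differ by Pax7 within that cluster was not tested. Scrublet marked 7 of the 25 male and 0 of the 31 female SC-like cells with Pax7.

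Pomc outside the Pomc-high cells was low, and higher in the male library in both SC-like and mesenchymal-like cells. SC-like cells held Pomc at 222 CPM (217 to 227) in the male library, against 55.2 CPM (52.6 to 57.9) in the female one, and without the 4 and 1 Pomc-high cells at 171 CPM (166 to 175) and 52.7 CPM (50.1 to 55.3). This was 2.04 and 0.513 UMIs per cell. Mesenchymal-like cells, which have no part in the endocrine lineage, held Pomc at 546 CPM (528 to 565) and 35.4 CPM (28.9 to 42.9). That male value rests on 5 Pomc-high cells, without which it was 151 CPM (141 to 161). Without Pomc-high cells, the SC-like level was thus above the mesenchymal-like level in both libraries, beyond counting error. At 5000 UMIs per cell, a Pomc UMI was found in 53.3% and 18.4% of SC-like cells and 53.7% and 13.5% of mesenchymal-like cells, beside 77.2% and 30.8%, and 73.6% and 22.8%, at full depth, where the median depths were 9596 and 8805 UMIs in SC-like and 8512 and 7929 in mesenchymal-like cells. The thinned shares were 50.8% and 18.3% in differentiating and 50.9% and 24.7% in gonadotroph-like cells. Between these classes the thinned share differed less than between the libraries, so a single Pomc UMI does not mark a POMC cell.

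The members were also counted per Pomc UMI in SC-like cells. Where the Pomc UMIs of these cells came from was not tested. Per 1000 Pomc UMIs, SC-like cells that were not Pomc-high held 3.53 Oacyl UMIs (2.16 to 5.45) in the male and 6.72 (3.36 to 12) in the female library, and melanotroph-like cells 2.76 (2.66 to 2.86) and 4.85 (4.59 to 5.12). For Tbx19 the values were 0.530 (0.109 to 1.55) and 0.611 (0.0155 to 3.41) in SC-like and 0.194 (0.169 to 0.222) and 0.647 (0.554 to 0.751) in melanotroph-like cells. For Oacyl and Tbx19 the melanotroph-like value lies within the SC-like interval in both libraries, but Tbx19 rests on 3 and 1 UMIs. Pax7 was at 8.30 (6.10 to 11) and 33.6 (25.3 to 43.8) in SC-like against 0.718 (0.669 to 0.770) and 1.85 (1.69 to 2.02) in melanotroph-like cells. At the finer resolution of 1.2, the 48 and 68 cells of the pituicyte-like cluster that were not Pomc-high held 34 and 42 Pax7 UMIs, beside 47 and 55 in all SC-like cells. Pcsk2 was at 15.4 (12.3 to 18.9) and 52.6 (42 to 64.9) against 5.63 and 13.2, and Scg2 at 43.4 (38.2 to 49.2) and 172 (153 to 194) against 2.65 and 2.52. Tnnt1 was at 104 (96.1 to 113) and 271 (246 to 297) against 0.00182 and 0.00374. As a share of its highest cluster, Pomc in SC-like cells was at 0.0663% and 0.0425%. Among other hormone genes, Gh was at 0.0926% and 0.130%, and Prl at 0.105% and 0.0932%. Cga was at 0.342% and 0.105%, and Lhb at 0.340% and 0.456%.

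Tnnt1 had its own order of levels. It was highest in the Tcf21-led mesenchymal-like cluster, at 81.8 CPM (72.5 to 92.0) in the male and 78.7 CPM (64.5 to 95.1) in the female library, followed by the Apod-led mesenchymal-like cluster at 35.7 CPM (28.8 to 43.8) and 30.3 CPM (22.2 to 40.3). The libraries did not differ beyond counting error in either. SC-like cells were at 17.8 CPM (16.4 to 19.3) and 14.3 CPM (13 to 15.6), lactotroph-like cells at 15.4 CPM (12.8 to 18.4) and 18.3 CPM (13.7 to 24.1), and these neighbours overlap. The pericyte-like cluster held 2 Tnnt1 UMIs in 25 male and 3 UMIs in 7 female cells, too few to place it. Gonadotroph-like cells were low, at 2.25 CPM (1.39 to 3.44) and 1.44 CPM (0.174 to 5.20).

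Over 40 pairs of cluster and library, the genes most like each member were ranked by Pearson r of log2(CPM + 5) among 5704 genes. For Pomc these were Resp18 (0.924), Pcsk2, Eef1a2, Oacyl and Caly, and for Tbx19 Eef1a2 (0.955), Pou2f2, Esm1, Ptprn and Resp18. For Pax7 they were Samd3 (0.970), Esm1, Pcsk2, Oacyl and Drd2, and for Oacyl Pcsk2 (0.972), Esm1, Samd3, Pax7 and Gm17660. Tnnt1 gave Bicc1 (0.829), Angptl4, Tnfsf12, Ier3 and Emc10, and its r with the other members was between -0.404 and -0.237. The pairs share 2 libraries and the melanotroph-like cluster weighs heavily among them, so these values only describe the order.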

How the data were processed

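The authors deposited raw UMI counts per gene and barcode from Cell Ranger 3.0.2 (mm10 with eGFP added) for 1 library of male and 1 of female sorted cells, without normalization. Here barcodes under 50 detected genes or with a mitochondrial share over 3 SD above the library mean were removed. Libraries held 105883748 and 62830305 UMIs after the filters, which sets the precision. Cells were clustered with Seurat 5.3.0 in R 4.3.3 (anchors, 20 components, nearest neighbours from RANN 2.6.2, Louvain resolution 0.8) on 1991 variable genes, without the members, and named from marker lists at a mean score of at least 0.4 with at least 3 markers at 5 CPM. Clusters under 33.3% of the median UMIs stayed unnamed. Doublets were scored with Scrublet in scanpy 1.11.5 (highest 0.8% per 1000 cells) and kept.

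UMIs were summed per group and library and scaled to CPM, with exact intervals from scipy 1.17.1. With 1 library per sex there is no replicate, and no p-value was computed. A gene was compared with at least 50 CPM and 100 UMIs, and called at a 2-fold ratio in the same direction in both libraries, with 0 UMIs set to 3. Ratio limits divide the opposite interval ends of both levels. The steps were tested on simulated data. Named genes are the members, genes of fixed lists at 5 CPM or more, the 10 called genes leading each way, and the 5 genes most like each member. The members, lists and limits were chosen with earlier results of these data known. Thinning used 5000 UMIs per cell. Some genes of the lists are not reported here.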

Additional observations from a re-analysis of the deposited data

Results flagged for a closer look

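For Cenpf, a kinetochore gene of dividing cells, the summed UMIs of Pomc-high Tbx19 cells differed in opposite directions between the libraries. Its ratio, Pax7-positive over Pax7-negative, was 0.411 (0.299 to 0.568) in the male and 12.7 (2.92 to 125) in the female library. It had 119 UMIs in 9 of the 38 male and 2 UMIs in 2 of the 23 female Pax7-negative cells. In Pax7-positive cells it had 210 UMIs in 13 of 115 male and 123 UMIs in 5 of 81 female cells. Both ratios thus rest on few cells, and their limits take the UMIs of a cell as independent. They do not compare shares of cells with Cenpf. The difference between the libraries was not tested.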

How the results depend on the processing

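No paired analysis was possible because there is 1 library per sex and no test. Of 226 values under the alternatives, 142 stayed within the counting interval, or within 1.5 times for counts of genes. The Pomc-high share was 4.26% in the male library with at least 1000 genes per cell, 3.42% after thinning to 5000 UMIs, 8.12% at a limit of 0.3%, 4.90% at 3% (female 2.01%) and 3.08% without the low-UMI clusters, a setting chosen after seeing the data, as were UMIs other than Pomc and leaving out Pomc-high cells. After thinning, 47.7% and 38.3% of Tbx19 cells had Pax7, and 22.6% and 18.6% of Pax7 cells had Tbx19. The latter were 32.1% and 36.5% when 2 UMIs were needed and 53.0% in the male library without low-UMI clusters. The Pomc ratio was 4.45 and 2.72 without doublets, 1.37 and 1.64 thinned, 2.40 and 1.37 at 2 UMIs, 2.48 and 2.24 among Pomc-high cells, and 4.67 in the male library without low-UMI clusters. The Tbx19 ratio of Pomc-high cells turned from 0.647 to 1.02 (0.548 to 1.91) in the male library after thinning. These cells were all chosen by a Tbx19 UMI, and thinning gives them the same depth. The cause was not tested.

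Genes called higher, lower and in all were 4, 5 and 9 after thinning (741 genes compared, fewer cells), 34, 54 and 88 at 2 UMIs, 112, 279 and 391 at 1.5-fold, 28, 40 and 68 at 3-fold, and 128, 175 and 303 at 10 CPM, with 69 lower over UMIs other than Pomc. Among Pomc-high cells they were 3, 4 and 7 after thinning, 110, 252 and 362 at 1.5-fold, 17, 29 and 46 at 3-fold, with 104 higher and 225 in all at 10 CPM, 54 lower and 90 in all at 2 UMIs, and 89 higher over UMIs other than Pomc.

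Pomc in male SC-like cells was at 214 CPM without doublets and at resolution 1.2, 228 CPM at 0.4, 325 CPM by markers without clusters (female 68.0 CPM) and 171 CPM without Pomc-high cells. In male mesenchymal-like cells it was at 212, 927, 684 and 151 CPM without doublets, at 0.4, by markers and without Pomc-high cells.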

Other observations

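With finer clusters, at a resolution of 1.2, 17 of the 36 male and 21 of the 47 female Pax7 cells with neither a Tbx19 UMI nor high Pomc fell in 1 cluster. It held 49 male and 68 female cells and was led by Fndc3c1, Col2a1 and Col25a1, with Rax among its leading 10 genes. The marker lists named it pituicyte-like. Rax and Nkx2-1, factors of pituicytes, had no UMI in the SC-like cells with Pax7. This cluster was looked at after its values had been seen.

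At 5000 UMIs per cell, at least 2 of 8 proliferation markers were found in melanotroph-like cells at shares of 2.31% (0.633 to 5.81) in the male and 0.775% (0.0196 to 4.24) in the female library, against 14.7% and 12.4% of all cells. At full depth the values were 8.05% and 3.10%, against 20.1% and 16.7%. Dividing cells formed clusters of their own, so these shares do not describe all cells with high Pomc. Pomc-high Tbx19 cells with Pax7, from any cluster, were at 8.77% (4.29 to 15.5) and 3.70% (0.770 to 10.4) at 5000 UMIs. At full depth they were at 15.7% and 7.41%. Those without Pax7 were at 15.2% (5.11 to 31.9) and 0% (0 to 15.4) at 5000 UMIs.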
